A study of Homo sapiens with 9 samples.

Results

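The respiratory chain and ATP synthase are built from subunits encoded in 2 genomes, and this account follows the mRNAs of all of them in palbociclib-treated and untreated U2OS cells with or without PERK. The members were found by symbol: protein-coding genes starting NDUFA, NDUFB, NDUFC, NDUFS or NDUFV with a number, SDHA to SDHD, and those starting UQCR, CYC1, COX4I, COX5, COX6, COX7, COX8, ATP5F1, ATP5M or ATP5P, together with the 13 protein genes of the mitochondrial genome. NDUFAF assembly factors and pseudogenes were left out, which left 102 genes of the 282 with a matching symbol, among 70116 gene IDs. Of the 102 genes, 89 are nuclear and 13 are mitochondrially encoded. The nuclear genes comprised 36 of complex I, 4 of complex II, 10 of complex III, 19 of complex IV, 18 of ATP synthase and 2 read-through genes. NDUFA4 and its paralog NDUFA4L2 were counted with complex IV, of which NDUFA4 is a subunit.

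U2OS is a human osteosarcoma cell line. The 3 groups of 3 libraries each, numbered as sets 1 to 3, were PERK-knockout cells on palbociclib, wild-type cells on palbociclib and wild-type cells on vehicle. PERK, encoded by EIF2AK3, was removed with CRISPR/Cas9, and palbociclib, an inhibitor of the cyclin-dependent kinases CDK4 and CDK6, was given for 4 days; whether the knockout cells are a clone or a pool is not given in the sources used here. Knockout cells on vehicle were not analysed here, so a difference between knockout and wild type cannot be told apart from one that the lines had before the drug. The deposited values were raw counts per gene, with 33674039 to 42577874 counts per library, and levels are given as CPM, a gene's count relative to the total of its library after TMM scaling. EIF2AK3 had 19.7, 18.7 and 17.8 CPM in knockout cells on palbociclib, against 35.7, 36.8 and 31.8 CPM in wild-type cells on palbociclib (log2 fold change -0.89 ± 0.07, SE; edgeR adjusted p = 5.98e-09), so its mRNA was reduced and still present in all 3 knockout libraries. None of 5 haematopoietic markers reached 1 CPM. All 6 mesenchymal and osteoblast markers did, with a sum of 7789 to 9556 CPM in knockout cells on palbociclib, 7499 to 8579 CPM in wild-type cells on palbociclib and 5122 to 5490 CPM on vehicle. Of 5 endothelial markers 2 did, with a sum of 4.97 to 5.20 CPM in knockout cells on palbociclib, 5.31 to 5.84 CPM in wild-type cells on palbociclib and 3.54 to 4.16 CPM on vehicle. The summed level of 6 epithelial markers was 567 to 590 CPM in knockout cells on palbociclib, 865 to 917 CPM in wild-type cells on palbociclib and 655 to 689 CPM on vehicle; these sums moved with the groups, and their part in the results was not tested.

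Complex I takes electrons from NADH and complex II from succinate, complex III passes them from ubiquinol to cytochrome c, and complex IV hands them to oxygen. Complexes I, III and IV pump protons, and ATP synthase lets them back to make ATP. The mitochondrial genome encodes hydrophobic cores of complexes I, III, IV and ATP synthase, whereas complex II is wholly nuclear, and the factors NRF1, GABP and YY1 are known to act on many nuclear subunit promoters. PERK sits in the membrane of the endoplasmic reticulum, where it phosphorylates eIF2alpha under stress and so slows translation; some of it lies where that membrane touches mitochondria.

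Per kilobase of exon, the mitochondrially encoded mRNAs were far more abundant than the nuclear ones. Their mean level over the 9 libraries ran between 1093 CPM per kilobase for MT-ND6 and 5901 CPM per kilobase for MT-CO1. The nuclear members had a median of 22.6 CPM per kilobase, and the highest was 255 CPM per kilobase for ATP5F1B, the catalytic beta subunit of ATP synthase. The exon lengths came from the GENCODE release 29 annotation of hg38, so the order between genes depends on its transcripts.

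The low-count filter passed 77 of the 89 nuclear genes and all 13 mitochondrial genes, among 19408 genes tested in all. In wild-type cells palbociclib lowered more nuclear subunit mRNAs than it raised. Of the 77, 29 were called lower (37.7%) and 3 higher (3.9%) at an edgeR quasi-likelihood adjusted p under 0.05, against 22.3% lower and 21.3% higher over all genes tested. The median log2 fold change was -0.10 for the 77 and -0.02 for all genes tested, so the changes were small. The 3 higher calls became 6 with the set number as a block and 8 without vehicle set 3. The called counts by complex were 11 lower and 2 higher of 33 in complex I, 3 lower of 4 in complex II, 3 lower and 1 higher of 10 in complex III, 3 lower of 13 in complex IV and 9 lower of 17 in ATP synthase. With the block, 5 of complex III were lower, and complex II and ATP synthase had 1 higher each.

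In complex I, NDUFB9, an accessory subunit of the membrane arm, had 110, 114 and 122 CPM on palbociclib, against 139, 142 and 151 CPM on vehicle (log2 fold change -0.32 ± 0.05; edgeR adjusted p = 4.7e-05). The groups did not overlap. NDUFV3, an accessory subunit of the NADH-binding module, was one of the 3 that rose, with 36.1, 37.0 and 34.4 CPM on palbociclib, against 32.0, 31.4 and 30.8 CPM on vehicle (0.19 ± 0.06; edgeR adjusted p = 0.0083). NDUFA8, another accessory subunit, rose by 0.14 ± 0.05 on the log2 scale (edgeR adjusted p = 0.042), a call that was lost by DESeq2 (adjusted p = 0.0553) and when any 1 of 7 libraries was left out (edgeR adjusted p from 0.0534 to 0.121). NDUFV2, a core subunit of the same module, showed the largest drop (-1.07 ± 0.20; edgeR adjusted p = 0.00023), but it held only 390 counts in all libraries together and shares 28.4% of its exon bases with another gene on the same strand.

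Complex II, succinate dehydrogenase, fell in 3 of its 4 subunits. SDHB, the iron-sulfur subunit (chr1:17018722-17054170), had 55.6, 57.7 and 51.2 CPM on palbociclib, against 74.0, 70.1 and 74.6 CPM on vehicle (log2 fold change -0.41 ± 0.06; edgeR adjusted p = 6.3e-06). SDHD, a membrane anchor (chr11:112086773-112120013), had 71.1, 77.5 and 67.9 CPM on palbociclib, against 89.8, 93.7 and 97.7 CPM on vehicle (-0.38 ± 0.05; edgeR adjusted p = 1e-05). Neither pair of groups overlapped. SDHA, the flavoprotein that oxidises succinate (chr5:218241-256700), had 11.9, 13.4 and 10.3 CPM on palbociclib, against 14.5, 14.7 and 14.0 CPM on vehicle (-0.28 ± 0.09; edgeR adjusted p = 0.015). That call was lost without vehicle set 2 (adjusted p = 0.0519) and without wild-type palbociclib set 3 (adjusted p = 0.156), both by edgeR. SDHC, the other membrane anchor (chr1:161314257-161375340), did not pass (0.11 ± 0.05; edgeR adjusted p = 0.083), with 100, 98.5 and 98.9 CPM on palbociclib and 88.3, 89.9 and 98.1 CPM on vehicle; with the set number as a block it was called higher (edgeR adjusted p = 0.040).

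**Figure D1:**
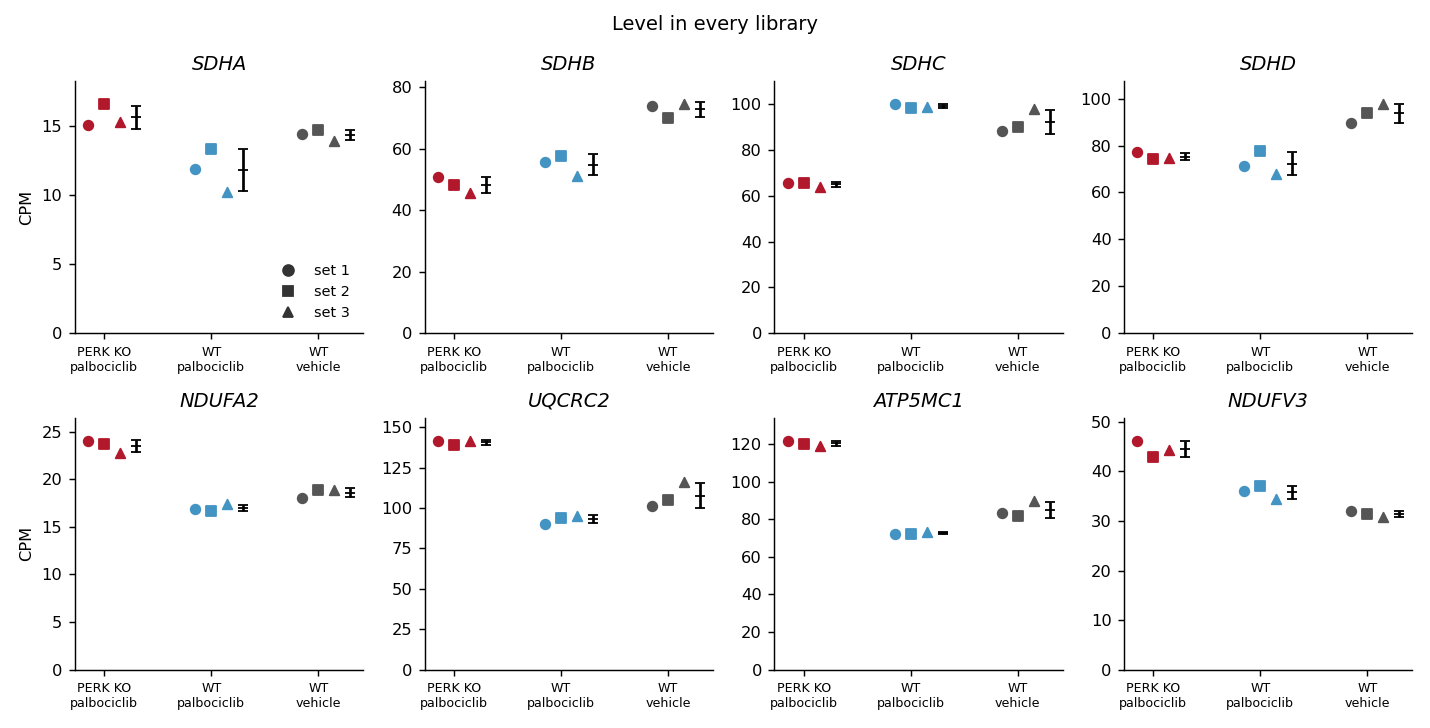
CPM in every library (circle, square and triangle for sets 1, 2 and 3) of 8 nuclear subunits, with the group mean and SD as the bar at the right of each group (n = 3). SDHB and SDHD lie lower on palbociclib than on vehicle in wild-type cells, SDHC lies lowest in knockout cells, and NDUFA2, UQCRC2 and ATP5MC1 lie highest in knockout cells.

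In complex III, UQCRC2, one of the core subunits facing the matrix (chr16:21952660-21983660), had 90.3, 94.0 and 95.3 CPM on palbociclib, against 102, 105 and 116 CPM on vehicle (log2 fold change -0.21 ± 0.05; edgeR adjusted p = 0.0029). CYC1, cytochrome c1, the subunit that passes electrons to cytochrome c, changed by a like amount (-0.20 ± 0.05; edgeR adjusted p = 0.0029). UQCRB, a ubiquinone-binding subunit, rose, with 103, 98.8 and 107 CPM on palbociclib and 87.0, 90.9 and 91.8 CPM on vehicle (0.20 ± 0.05; edgeR adjusted p = 0.0025). In complex IV, COX7B had 79.7, 83.4 and 87.6 CPM on palbociclib, against 97.1, 107 and 117 CPM on vehicle (-0.36 ± 0.06; edgeR adjusted p = 0.00013), and COX8A fell by 0.26 ± 0.07 (edgeR adjusted p = 0.0033); both are small subunits of its membrane part. In ATP synthase, ATP5PB, subunit b of the peripheral stalk, had 288, 281 and 284 CPM on palbociclib, against 331, 336 and 367 CPM on vehicle (-0.28 ± 0.05; edgeR adjusted p = 0.00014). The groups did not overlap for any of these 6 genes.

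In knockout cells on palbociclib the calls among nuclear subunits ran mostly the other way, but the called genes were only partly the same. ATP5MC1 and UQCRC2, for example, were called in both comparisons. NDUFB9 and SDHD were lower with palbociclib without a call in knockout cells, and NDUFA2 and COX7C were higher in knockout cells without a palbociclib call. Set against wild-type cells on palbociclib, 29 of 77 were called higher (37.7%) and 3 lower (3.9%), against 14.9% higher and 13% lower over all genes tested. The median log2 fold change was 0.12 for the 77 and 0.01 for all genes tested. The 3 lower calls became 5 when library totals replaced TMM scaling. Both comparisons use the wild-type palbociclib libraries, so a shift in those libraries enters both with opposite sign. The called counts were 12 higher and 1 lower of 33 in complex I, 1 higher and 2 lower of 4 in complex II, 4 higher of 10 in complex III, 6 higher of 13 in complex IV and 6 higher of 17 in ATP synthase. With the block, 1 of ATP synthase was lower.

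**Figure D2:**
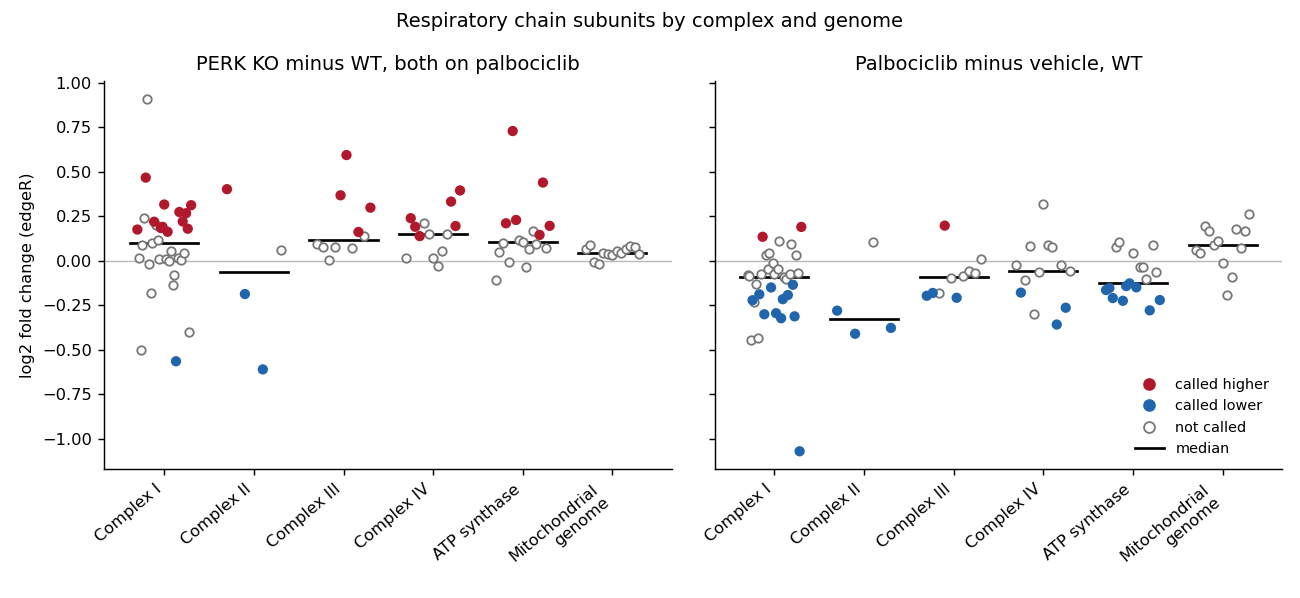
log2 fold change of each tested subunit by complex and genome, for knockout against wild type on palbociclib (left) and palbociclib against vehicle in wild type (right), with filled points for calls at an edgeR adjusted p under 0.05 and bars for medians. Nuclear calls lie mostly above 0 on the left (29 of 32) and mostly below 0 on the right (29 of 32), and no mitochondrially encoded gene was called. The called genes are only partly the same on the left and right.

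ATP5MC1 changed most among the called members. It encodes subunit c of the membrane rotor of ATP synthase (chr17:48892765-48895871) and had 122, 120 and 119 CPM in knockout cells, against 72.2, 72.4 and 73.0 CPM in wild-type cells, both on palbociclib (log2 fold change 0.73 ± 0.05; edgeR adjusted p = 8.7e-10). On vehicle, wild-type cells had 83.3, 81.5 and 89.6 CPM, so the knockout libraries lay above both wild-type groups. ATP5PD, subunit d of the peripheral stalk, had 179, 176 and 174 CPM in knockout cells, against 127, 130 and 132 CPM in wild-type cells (0.44 ± 0.05; edgeR adjusted p = 1.4e-06). ATP5MC2 and ATP5MC3, which encode the same mature subunit c as ATP5MC1, differed by 0.23 ± 0.05 (edgeR adjusted p = 0.00062) and 0.12 ± 0.05 (edgeR adjusted p = 0.086 without the set block and 0.0235 with it).

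In complex III, UQCRC2 had 142, 139 and 142 CPM in knockout cells, against 90.3, 94.0 and 95.3 CPM in wild-type cells on palbociclib (log2 fold change 0.59 ± 0.05; edgeR adjusted p = 3.8e-08). UQCRC1, the other core subunit facing the matrix, had 279, 286 and 270 CPM in knockout cells, against 217, 218 and 212 CPM in wild-type cells (0.37 ± 0.05; edgeR adjusted p = 4.8e-06). The groups did not overlap for either gene. UQCRFS1, the Rieske iron-sulfur subunit, differed by 0.07 ± 0.05 (edgeR adjusted p = 0.29) and CYC1 by 0.09 ± 0.05 (edgeR adjusted p = 0.18), so the electron-carrying nuclear subunits of complex III did not pass.

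In complex IV, NDUFA4 had 259, 251 and 263 CPM in knockout cells, against 188, 193 and 208 CPM in wild-type cells on palbociclib (log2 fold change 0.40 ± 0.06; edgeR adjusted p = 3.8e-05). COX7C, a small membrane subunit, had 194, 188 and 183 CPM in knockout cells, against 152, 148 and 149 CPM in wild-type cells (0.33 ± 0.06; edgeR adjusted p = 0.00012). COX4I1, a subunit of the early assembly steps of complex IV, had a difference of 0.01 ± 0.05 (edgeR adjusted p = 0.85). In complex I, NDUFA2, an accessory subunit of the NADH-binding module, had 24.1, 23.7 and 22.8 CPM in knockout cells, against 16.9, 16.7 and 17.4 CPM in wild-type cells (0.47 ± 0.06; edgeR adjusted p = 1.2e-05). NDUFB5, of the membrane arm, had 36.3, 36.4 and 36.4 CPM in knockout cells, against 29.2, 30.0 and 28.4 CPM in wild-type cells (0.32 ± 0.07; edgeR adjusted p = 0.0012).

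SDHC and SDHB were among the 3 called lower in knockout cells. SDHC had 65.5, 65.6 and 63.8 CPM in knockout cells, against 100, 98.5 and 98.9 CPM in wild-type cells on palbociclib (log2 fold change -0.61 ± 0.05; edgeR adjusted p = 1.3e-08). Every knockout library lay below every wild-type library. SDHB had 50.7, 48.3 and 45.7 CPM in knockout cells, against 55.6, 57.7 and 51.2 CPM in wild-type cells (-0.19 ± 0.06; edgeR adjusted p = 0.017), a call lost in 4 of the 9 fits that left out a library (edgeR adjusted p from 0.0517 to 0.113). SDHA rose, with 15.1, 16.6 and 15.3 CPM in knockout cells and 11.9, 13.4 and 10.3 CPM in wild-type cells (0.40 ± 0.09; edgeR adjusted p = 0.0018), and SDHD gave 77.1, 74.2 and 74.6 CPM, against 71.1, 77.5 and 67.9 CPM (0.06 ± 0.05; edgeR adjusted p = 0.44). The 4 subunits of complex II thus did not move together between knockout and wild type.

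SDHC lies on the long arm of chromosome 1, in a stretch where most genes were lower in knockout cells. Within 5 Mb either side of SDHC, leaving out respiratory chain subunits, 60 of 68 genes with a mean of at least 1 CPM had a log2 fold change below 0, 47 were called lower, and the median was -0.53. The median of the tested genes around each subunit, leaving out subunits, was -0.55 for SDHC, which left -0.06 for SDHC itself. The same subtraction left 0.40 of 0.73 for ATP5MC1, 0.40 of 0.59 for UQCRC2, 0.17 of 0.37 for UQCRC1, 0.16 of 0.47 for NDUFA2, 0.20 of 0.32 for NDUFB5, 0.25 of 0.33 for COX7C, 0.28 of 0.44 for ATP5PD, 0.21 of 0.40 for NDUFA4 and 0.31 of 0.40 for SDHA. For SDHB the surrounding median was -0.25 and the remainder 0.06. After the subtraction, the median log2 fold change was above 0 in complexes I, III and IV and in ATP synthase, at 0.08, 0.08, 0.16 and 0.15. Complex II stood at 0.08 with the subtraction and at -0.06 without it. DNA copy number was not measured, and its part was not tested.

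**Figure D3:**
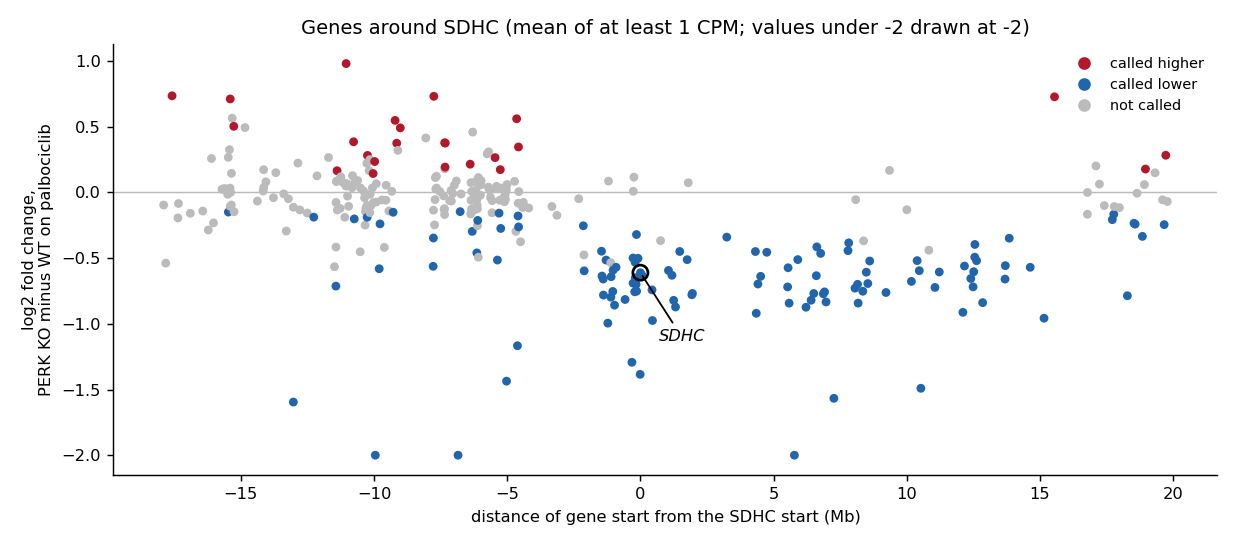
log2 fold change between knockout and wild type on palbociclib of genes with a mean of at least 1 CPM, by distance in Mb of the gene start from that of SDHC, coloured by edgeR call, with other respiratory chain subunits left out. SDHC (-0.61), ringed, sits within a run of genes around the median of -0.53 for the 68 genes within 5 Mb.

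Knockout cells on palbociclib were also set against wild-type cells on vehicle, a pair that differs in both genotype and drug. Here 18 of 77 nuclear subunits were called higher (23.4%) and 16 lower (20.8%), against 25.7% higher and 26% lower over all genes tested, shares near the background. The median log2 fold change was 0.06 for the 77 and -0.01 for all genes tested. NDUFV3 had 46.2, 42.9 and 44.3 CPM in knockout cells on palbociclib, against 32.0, 31.4 and 30.8 CPM on vehicle (log2 fold change 0.50 ± 0.05; edgeR adjusted p = 1.9e-07), and was also higher than on vehicle in treated wild-type cells. Complex II gave 3 lower and none higher of 4: SDHB fell by 0.60 ± 0.06 (edgeR adjusted p = 2.8e-08), SDHC by 0.50 ± 0.05 (edgeR adjusted p = 5e-08) and SDHD by 0.32 ± 0.05 (edgeR adjusted p = 5.1e-05). ATP5F1A, the alpha subunit of the catalytic head, had 418, 402 and 404 CPM in knockout cells on palbociclib, against 472, 493 and 513 CPM in wild-type cells on vehicle (-0.27 ± 0.05; edgeR adjusted p = 6.1e-05). UQCRQ, a small subunit of complex III, was higher by 0.31 ± 0.05 (edgeR adjusted p = 1.7e-05). Subtracting the median of the surrounding genes in this comparison left 0.27 of 0.50 for NDUFV3, 0.04 of 0.31 for UQCRQ, -0.38 of -0.60 for SDHB, -0.10 of -0.50 for SDHC, -0.23 of -0.32 for SDHD and -0.02 of -0.27 for ATP5F1A. Calls for COX7B (-0.21 ± 0.06; edgeR adjusted p = 0.0094) and ATP5MF, subunit f of the membrane part (-0.18 ± 0.05; edgeR adjusted p = 0.0078), were each lost when a library was left out.

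The 13 mitochondrially encoded mRNAs took 4.04%, 3.22% and 3.89% of all counts in knockout cells on palbociclib, 3.48%, 3.42% and 4.24% in wild-type cells on palbociclib, and 3.62%, 2.84% and 3.79% in wild-type cells on vehicle. The 3 groups overlapped, and set 2 was the lowest library in each of them. The 89 nuclear genes took 0.747%, 0.716% and 0.726% in knockout cells on palbociclib, 0.681%, 0.684% and 0.686% in wild-type cells on palbociclib, and 0.711%, 0.727% and 0.766% on vehicle. For the nuclear genes, wild-type cells on palbociclib lay below the other groups in all 3 libraries. In bulk libraries, fewer cells of a type and less RNA per cell cannot be told apart.

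**Figure D4:**
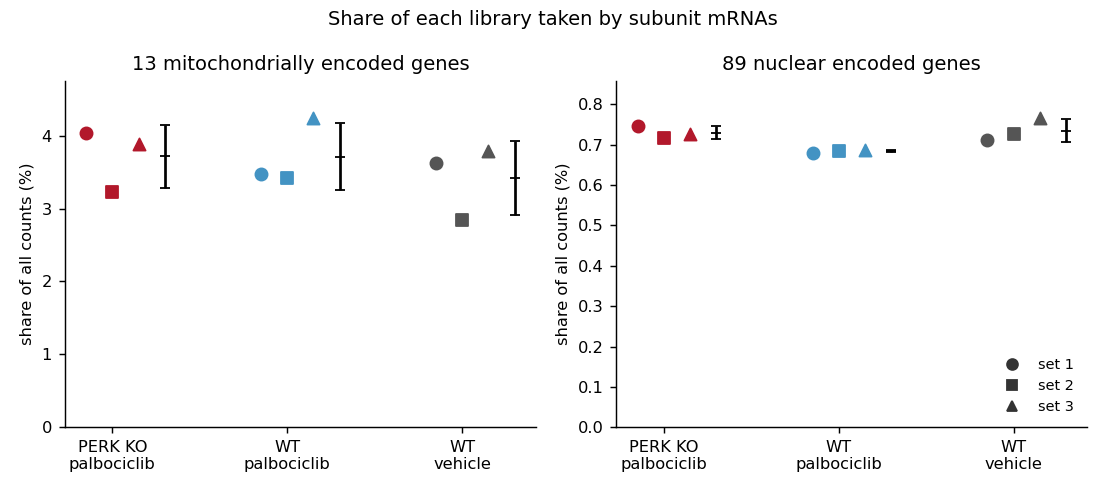
Share of all counts in each library taken by the 13 mitochondrially encoded genes (left) and the 89 nuclear genes (right), with set numbers as symbols and the group mean and SD at the right of each group (n = 3). The mitochondrial share overlaps between groups with set 2 lowest in each, whereas the nuclear share is lowest in wild-type cells on palbociclib.

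No mitochondrially encoded gene was called in any of the 3 comparisons by edgeR, DESeq2 or limma-voom, and none had an unadjusted edgeR p under 0.05. A single call appeared when some libraries were left out: MT-ND2 lower with palbociclib without vehicle set 2, and MT-ND6 higher in knockout cells than on vehicle without wild-type palbociclib set 3 or without all 3 of that group. The SEs of their log2 fold changes were 0.13 to 0.16, larger than those of most nuclear subunits. Part of that spread went with the set number. In the fit with the set as a block, all 13 differed between sets, against 2 of 77 nuclear subunits and 8.07% of all genes tested. In that fit 4 mitochondrial genes were called higher and 1 lower with palbociclib in wild-type cells, where 50.3% of all genes tested were called either way. MT-ND6, the only protein gene on the light strand, had 563, 532 and 710 CPM on palbociclib, against 526, 428 and 550 CPM on vehicle (log2 fold change 0.26 ± 0.13; edgeR adjusted p = 0.15 without the block and 0.000201 with it). MT-ND2 had 1873, 1652 and 2061 CPM on palbociclib, against 2380, 1739 and 2256 CPM on vehicle (-0.19 ± 0.14; edgeR adjusted p = 0.33 without the block and 0.000449 with it). MT-CO1, MT-CO2 and MT-ND5 were the other 3 called higher with the block, at edgeR adjusted p = 0.0199, 0.042 and 0.0108.

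With the block, knockout against wild type on palbociclib gave no mitochondrial call, and the 13 log2 fold changes ran from -0.02 to 0.09. For knockout cells on palbociclib and wild-type cells on vehicle, the blocked fit gave 6 higher and 1 lower, where 57.5% of all genes tested were called either way. MT-ND6 had 647, 567 and 641 CPM in knockout cells on palbociclib, against 526, 428 and 550 CPM on vehicle (0.30 ± 0.13; edgeR adjusted p = 0.093 without the block and 2.37e-05 with it). MT-ND4, a proton-pumping subunit of complex I, had 6289, 5005 and 6050 CPM, against 5203, 3995 and 5478 CPM (0.24 ± 0.15; edgeR adjusted p = 0.22 without the block and 0.0146 with it). MT-ND2 was the one called lower (edgeR adjusted p = 0.47 without the block and 0.00773 with it).

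Shares within the mitochondrial mRNA pool do not depend on its size in a library. MT-ND2 held 5.21%, 5.11% and 5.03% of the 13-gene sum in knockout cells on palbociclib, 5.43%, 4.85% and 4.89% in wild-type cells on palbociclib, and 6.57%, 6.17% and 6.03% on vehicle. MT-ND3 held 1.20%, 1.16% and 1.15% in knockout cells, 1.18%, 1.14% and 1.17% in wild-type cells on palbociclib, and 1.35%, 1.40% and 1.30% on vehicle. MT-ND1 held 4.95%, 5.06% and 5.11% in knockout cells, 5.13%, 4.86% and 5.13% in wild-type cells on palbociclib, and 5.78%, 5.33% and 5.42% on vehicle. These 3 complex I mRNAs were a smaller share in every treated library, of either genotype, than in any vehicle library. MT-ND4 moved the other way, with 15.4%, 15.2% and 15.4% in knockout cells, 14.8%, 15.2% and 14.9% in wild-type cells on palbociclib, and 14.4%, 14.2% and 14.7% on vehicle. MT-ND6 held 1.58%, 1.72% and 1.63% in knockout cells, 1.63%, 1.56% and 1.69% in wild-type cells on palbociclib, and 1.45%, 1.52% and 1.47% on vehicle. A share within a pool shows unequal change among its genes, not which of them changed. MT-ATP8 and MT-ATP6, and MT-ND4L and MT-ND4, overlap on shared transcripts, so their reads cannot be fully told apart. No strand step is given for the libraries, so reads of MT-ND6 cannot be told apart from those of transcripts antisense to it. Poly-T beads selected the RNA, and how well they caught each mitochondrial mRNA was not measured, so levels and shares may depend on it.

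**Figure D5:**
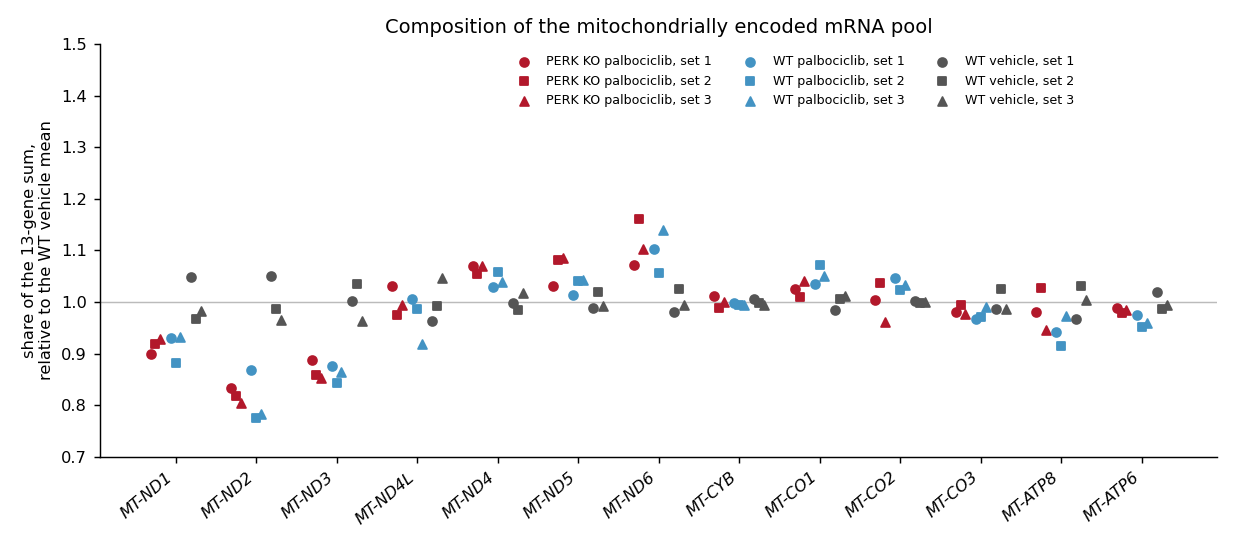
Share of each mitochondrially encoded gene in the 13-gene sum of its library, divided by the mean share in wild-type vehicle libraries, for the 9 libraries (colours for groups, symbols for sets). MT-ND1, MT-ND2, MT-ND3, MT-CO3 and MT-ATP6 lie below 1 in all 6 palbociclib libraries, and MT-ND4, MT-ND5, MT-ND6 and MT-CO1 above 1. Of these, MT-ND1, MT-ND2, MT-ND3, MT-ND4 and MT-ND6 are clear of every vehicle library in all 6.

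Several subunits have tissue-specific isoforms, which are given here beside the widespread ones. COX4I1 had 253, 247 and 246 CPM in knockout cells on palbociclib, 239, 245 and 254 CPM in wild-type cells on palbociclib, and 251, 247 and 254 CPM on vehicle, whereas its paralog COX4I2 was listed at 0 in all 9 libraries. COX6A1, COX6B1, COX7A2 and COX8A each had at least 43.5 CPM in every library. Their paralogs COX6A2, COX6B2, COX7A1 and COX8C held 3, 249, 103 and 0 counts over all libraries together. For COX8C, all 10 of the nearest protein-coding genes had under 10 counts, so its 0 says nothing of expression, and widely expressed genes are listed at 0 in this table too. COX7A2L, a factor in the joining of respiratory complexes, and COX7A2 did not pass in any of the 3 comparisons; with the set block COX7A2L was called higher in knockout cells on palbociclib than in wild-type cells on vehicle (edgeR adjusted p = 0.00631). UQCRH and its intronless copy UQCRHL share near-identical sequence, as do SDHA and its pseudogenes, and their values are uncertain, since the handling of reads with several matches is not given.

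Gaps in the table touched widely expressed members too. NDUFS1, a core iron-sulfur subunit of complex I, NDUFA6 and COX5B were listed at 0 in all 9 libraries, and NDUFB10 had 3 counts over all of them. Among the 10 nearest protein-coding genes, 7 beside COX5B, 6 beside NDUFS1, 8 beside NDUFB10 and 1 beside NDUFA6 had under 10 counts in all libraries together, against 21.4% of 19855 protein-coding genes. RPS2 and EEF1B2, needed for translation in every cell, are neighbours of these members and held 42 and 1 counts. The zeros of NDUFS1 and COX5B and the 3 counts of NDUFB10 therefore say nothing of expression. For NDUFA6, with 1 such neighbour of 10, this ground is missing, and its 0 is not read either way. No fold change is given for these members. NDUFA3, NDUFA7 and NDUFA11 passed the filter with 108, 114 and 192 counts in all libraries together, which is too few for a firm value.

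The promoters of nuclear subunits were compared with others because NRF1, GABP and YY1 are known to bind such promoters. RefSeq windows of 300 bases (GRCh38.p14, 250 before to 50 after the gene start) were found for 68 of the 87 nuclear members that are no read-through. The NRF1 motif GCGCANGCG, read on both strands, was in 21 of 68 windows (30.9%), against 7.79% of all 27305 windows and 13% of those of genes tested here. The GABP core CCGGAAG was in 20 (29.4%), against 10.6% of all windows and 16.9% of those of genes tested, and the YY1 motif AAGATGGCG in 9 (13.2%), against 1.81% and 3.41%. The members called lower with palbociclib held the NRF1 motif in 10 of 24 windows and the other tested members in 10 of 37. The GABP core went the other way, in 5 of 24 and 14 of 37, and the YY1 motif was in 3 of 24 and 5 of 37. Members called higher in knockout cells held the NRF1 motif in 7 of 26 windows and the other tested members in 13 of 35. For the GABP core these were 8 of 26 and 11 of 35, and for the YY1 motif 3 of 26 and 5 of 35. Neither split was tested, and a match is a description of letters, not of binding.

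The 250 bases before the start of 4 members that moved are shown, with motif matches in capitals: SDHA (chr5:218070-218319, plus strand) with 4 NRF1 matches, SDHB (chr1:17054033-17054282, minus strand) with 1 GABP match here and 1 YY1 match past the start, UQCRC1 (chr3:48609647-48609896, minus strand) with 2 NRF1 matches here and 1 YY1 match past the start, and ATP5MC1 (chr17:48892537-48892786, plus strand) with none.
SDHA: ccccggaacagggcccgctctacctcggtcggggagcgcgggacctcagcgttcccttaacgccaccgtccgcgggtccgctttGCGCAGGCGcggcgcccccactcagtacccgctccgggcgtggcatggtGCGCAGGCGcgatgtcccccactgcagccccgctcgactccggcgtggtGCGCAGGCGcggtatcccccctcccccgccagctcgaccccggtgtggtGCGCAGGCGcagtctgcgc
SDHB: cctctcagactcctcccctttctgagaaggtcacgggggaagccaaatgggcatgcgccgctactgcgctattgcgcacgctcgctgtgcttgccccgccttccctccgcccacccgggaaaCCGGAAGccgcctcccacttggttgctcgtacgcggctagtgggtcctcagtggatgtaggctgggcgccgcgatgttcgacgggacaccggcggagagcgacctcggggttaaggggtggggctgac
UQCRC1: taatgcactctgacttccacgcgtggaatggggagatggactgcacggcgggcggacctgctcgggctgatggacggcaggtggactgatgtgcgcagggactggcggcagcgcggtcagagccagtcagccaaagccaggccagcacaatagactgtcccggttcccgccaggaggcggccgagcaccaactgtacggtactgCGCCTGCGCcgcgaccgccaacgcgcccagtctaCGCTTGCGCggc
ATP5MC1: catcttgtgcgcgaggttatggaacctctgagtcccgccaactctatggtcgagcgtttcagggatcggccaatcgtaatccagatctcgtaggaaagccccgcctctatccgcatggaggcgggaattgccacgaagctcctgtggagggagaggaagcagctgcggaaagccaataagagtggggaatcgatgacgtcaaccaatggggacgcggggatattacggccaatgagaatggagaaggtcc

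SDHA, with 4 NRF1 matches, and ATP5MC1, with none, both fell with palbociclib in wild-type cells and were both higher in knockout cells than in wild-type cells on the drug. SDHB, with a GABP match, was lower in both comparisons.

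Among the nuclear regulators of respiratory genes, 7 of 8 fell with palbociclib in wild-type cells and 1 rose, against 22.3% of all genes tested called lower and 21.3% higher. NRF1 itself had 15.9, 16.2 and 15.7 CPM on palbociclib, against 25.0, 25.2 and 25.2 CPM on vehicle (log2 fold change -0.66 ± 0.07; edgeR adjusted p = 1.42e-07). GABPB1, the partner subunit of GABP, had 24.8, 24.1 and 23.0 CPM on palbociclib, against 35.0, 36.5 and 37.4 CPM on vehicle (-0.60 ± 0.06; edgeR adjusted p = 1.8e-07). Neither differed between knockout and wild type on palbociclib at the threshold (NRF1 0.03 ± 0.07, edgeR adjusted p = 0.80; GABPB1 -0.08 ± 0.06, edgeR adjusted p = 0.38). In that comparison 2 of the 8 regulators were called higher and 1 lower, against 14.9% higher and 13% lower over all genes tested. The one called lower was GABPA, the other subunit of GABP (log2 fold change -0.21). PPARGC1B, a coactivator of mitochondrial genes, had 9.79, 10.3 and 10.9 CPM in knockout cells on palbociclib, 6.48, 7.47 and 6.32 CPM in wild-type cells on palbociclib, and 11.1, 11.7 and 9.91 CPM on vehicle. It was thus higher in knockout cells on the drug (0.61 ± 0.10; edgeR adjusted p = 9.04e-05; surrounding median 0.23) and lower with the drug in wild-type cells (-0.69 ± 0.10; edgeR adjusted p = 1e-05). PPARGC1A showed the largest drop with the drug (-1.17 ± 0.41; edgeR adjusted p = 0.033) at levels under 2 CPM, and ESRRA, a nuclear receptor that works with it, was the one that rose (0.23 ± 0.06; edgeR adjusted p = 0.0048).

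Of genes that copy and express mitochondrial DNA, 8 of 15 for replication and RNA synthesis and 9 of 15 for RNA processing were called lower with palbociclib in wild-type cells, and none higher, against 22.3% lower and 21.3% higher over all genes tested. The median log2 fold changes were -0.23 and -0.16, against -0.02 for all genes tested. TFAM, which packages and transcribes mitochondrial DNA, had 129, 129 and 118 CPM on palbociclib, against 152, 166 and 174 CPM on vehicle (log2 fold change -0.38 ± 0.05; edgeR adjusted p = 1.06e-05). PNPT1, a mitochondrial RNA-degrading enzyme, changed by -0.39 (edgeR call lower). Between knockout and wild type on palbociclib, 3 of the first list were higher and 1 lower (3 lower with the set block), and 2 of the second were higher and 4 lower, against 14.9% higher and 13% lower over all genes tested. MGME1 (-0.45) and FASTKD5 (-0.60) were the lowest, with surrounding medians of -0.57 and -0.57 on chromosome 20.

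The assembly factors, which build the complexes and are no part of them, were counted in the same way. With palbociclib in wild-type cells, 7 of 16 complex I factors were called lower and 2 higher, as were 3 and 0 of 6 for complex III, 5 and 1 of 20 for complex IV, and 3 and 0 of 3 for ATP synthase, while complex II gave 1 and 1 of 4; over all genes tested, 22.3% were lower and 21.3% higher. With the set block, 2 factors each of complexes II and IV were higher. Between knockout and wild type on palbociclib, 7 of the complex I factors were higher and 1 lower, 2 of the complex III factors and 3 of the complex IV factors were higher with none lower, and none of those for complex II or ATP synthase was called, against 14.9% higher and 13% lower over all genes tested. With the set block, 1 factor each of complexes III and IV was lower and 1 of ATP synthase higher. COX11, a copper-delivery factor for complex IV, had 51.9, 46.0 and 49.0 CPM in knockout cells on palbociclib, 37.0, 36.2 and 35.8 CPM in wild-type cells on palbociclib, and 47.9, 48.5 and 48.6 CPM on vehicle. It was higher in knockout cells by 0.43 ± 0.05 (edgeR adjusted p = 4.07e-06), with a surrounding median of 0.23 on chromosome 17. NDUFAF5, a complex I factor, was the one lower in knockout cells (-0.83 ± 0.10; edgeR adjusted p = 3.69e-06), with a surrounding median of -0.59 on chromosome 20.

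Beyond the subunits, counts of called genes are to be read against 22.3% lower and 21.3% higher over all genes tested with palbociclib, and 14.9% higher and 13% lower between knockout and wild type on the drug. For coenzyme Q synthesis and cytochrome c, 6 of 14 genes were called lower and 4 higher with palbociclib in wild-type cells, and 7 higher and 2 lower in knockout against wild type on the drug. CYCS, cytochrome c, had 355, 341 and 325 CPM in knockout cells on palbociclib, 303, 319 and 287 CPM in wild-type cells on palbociclib, and 414, 400 and 435 CPM on vehicle. Of 13 mitochondrial chaperones and proteases, 8 were lower and none higher with palbociclib in wild-type cells. HSPE1, the mitochondrial co-chaperonin, was the lowest of them (-0.54 ± 0.05; edgeR adjusted p = 5.7e-08). Between knockout and wild type on the drug, 4 of the 13 were higher and 3 lower, with PHB2, a scaffold of the inner membrane, at 0.63 ± 0.05 (edgeR adjusted p = 4.16e-09; surrounding median 0.28) and AFG3L2, a protease, at -0.73 with a surrounding median of -0.48 on chromosome 18. Of 17 tricarboxylic acid cycle and pyruvate dehydrogenase genes, 7 were lower and 2 higher with palbociclib in wild-type cells. In knockout cells on the drug 2 of the 17 were higher and 2 lower, shares near those of all genes tested. IDH2, a mitochondrial isocitrate dehydrogenase, had 34.5, 36.3 and 37.4 CPM on palbociclib, against 18.5, 21.5 and 21.9 CPM on vehicle (0.81 ± 0.07; edgeR adjusted p = 1.31e-08). Of 8 hypoxia-factor targets, 4 were higher and none lower with palbociclib in wild-type cells, led by PDK1, which restrains pyruvate dehydrogenase (0.93 ± 0.18; edgeR adjusted p = 0.0026). In knockout cells on the drug 1 of the 8 was higher and 1 lower (3 lower with the set block), and without the block these shares too were near those of all genes tested. Of 3 tested nuclear-retained RNAs, NEAT1 alone was called between knockout and wild type on the drug, where it was higher (1.09; edgeR adjusted p = 0.0060); with the set block 2 of the 3 were higher.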

How the data were processed

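Poly-T beads selected the mRNA and random hexamers primed its cDNA, per the labels' protocols. Per the submitters' processing notes, CASAVA, FastQC, Trim Galore, STAR 2.7.9a, DESeq2 and hg38 were used; for the read counter, strandedness and gene models no name is given there. The authors deposited raw counts per gene for 9 libraries.

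The counts were tested with edgeR 4.0.16 (TMM, factors 0.977 to 1.01; low counts removed by group; robust quasi-likelihood F test on 9 libraries in 1 model of 3 groups, 6 residual degrees of freedom; Benjamini-Hochberg adjustment over 19408 genes, called under 0.05), in R 4.3.3. A fold change has the palbociclib or knockout group on top. The script was tested on simulated data. DESeq2 1.42.0 and limma 3.58.1 (voom) were alternatives, besides other scalings, no filter, 6 libraries only, a set block and each library left out. Symbols were given for 62700 of 70116 IDs, and positions came from GENCODE 29 (58261 IDs). Rows without a symbol held about 0.105% of counts. Sequences came from RefSeq (GRCh38.p14).

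Named per comparison and complex were the 2 called members with the largest rise and the 2 with the largest fall at a mean of at least 1 CPM, along with the SDH genes, the mitochondrial genes and isoform families; other members are named after their values were seen. The members and lists were chosen with earlier results of these data known. Nothing says that sets came from separate cultures, so p-values measure the spread between libraries, which may be technical; no 2 replicates agreed within counting noise. Over 12932 genes, deviations from group means correlated at 0.176 to 0.541 in all 9 same-set pairs and at -0.401 to 0.0714 between sets, so set numbers were taken to pair the libraries.

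Of the 102 members, 43 share over 5% of their exon bases with another gene. Nuclear copies of mitochondrial genes (404 symbols) held 1.29% of the counts of the mitochondrial genes themselves. They were not spread evenly: 151230 of their 160335 counts lay in MTATP6P1, beside 978909 counts for MT-ATP6. Results for 1 subunit are not reported here.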

Additional observations from a re-analysis of the deposited data

How the results depend on the processing

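No named result changed direction while called, and no alternative scaling moved the median log2 fold change of all genes by over 0.1. The replicate block, which pairs libraries of 1 set, took nuclear subunits called higher with palbociclib in wild type to 6 (3 without it), mitochondrial calls there to 5 (0 without it) and mitochondrial calls between knockout on palbociclib and wild type on vehicle to 7 (0 without it); it changed no other count over all nuclear or all mitochondrial subunits by over 1.5 times, and every subunit call made without it was kept. Counts by complex or gene list that it moved by more stand beside them, and for knockout on palbociclib against wild type on vehicle it took ATP synthase to 6 higher and 5 lower (3 and 3 without it) and complex III to 2 lower (0 without it). With library totals only, nuclear subunits called lower in knockout against wild type on palbociclib numbered 5 (3 with TMM). With only the 6 libraries compared, 1 mitochondrial gene was called between knockout on palbociclib and wild type on vehicle. Leaving out 1 library at a time gave 2 to 8 nuclear subunits higher, 21 to 29 lower and 0 to 1 mitochondrial calls for palbociclib against vehicle. It gave 21 to 33, 2 to 3 and 0 for knockout against wild type on palbociclib, and 17 to 25, 13 to 17 and 0 to 1 for knockout on palbociclib against wild type on vehicle. The cause of these changes was not tested. Of the values of single named subunits and complex medians under the alternatives, 2291 stayed as they were called, 71 lost a call, 41 gained one and 4 medians moved with the neighbourhood subtraction. Values of members with few counts, such as NDUFV2, are uncertain, and why their counts were few was not tested.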
